A study of Arabidopsis thaliana with 27 samples.

Results

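The genes described here had transcript in the radicle of dormant (D) Arabidopsis seeds and little or none in the endosperm around it. They were chosen by level alone. A gene was taken when its mean was above 6 in the D radicle with hypocotyl (RAD) at 1 or more time points, and below 5 at every time point in the D micropylar and chalazal endosperm (MCE). Levels are log2 signals of ATH1 arrays after robust multi-array averaging (RMA), and each mean is over 3 arrays. The rule took 173 of the 21313 genes measured, or 0.812%. The reference annotation held 172 of them and gave 99 a name other than the locus identifier. The remaining 74 are given by identifier, with a role only where the annotation states one.

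All 27 arrays used here came from freshly harvested, unstored D seeds of the Cape Verde Islands (Cvi) accession, a wild type that is strongly dormant. There were 9 groups of 3 arrays, namely undissected D dry seeds, and the RAD and the MCE of D seeds imbibed in water and dissected 3, 7, 12 or 24 hours after they were sown (hours after sowing, HAS). The RAD pieces hold the embryonic root and the hypocotyl together, and the dry seeds hold the whole embryo, the endosperm and the seed coat. RAD RNA was isolated with a column kit, whereas MCE and dry seed RNA was isolated with a hot borate method. Compartment and isolation method therefore cannot be told apart in the RAD to MCE or the dry seed to RAD comparisons, while the RAD time points share 1 method. The labels speak of plants grown in 3 replicates without tying an array to a plant, so that p-values measure the spread between these arrays.

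A dormant seed takes up water and resumes transcription without completing germination. Its radicle is an organ already laid down during embryo development, with a root meristem, an epidermis and a hypocotyl that can elongate. Elongation draws on cell wall enzymes that loosen the wall, on water channels that let cells take up water, and on gibberellin, brassinosteroid and auxin signals. The endosperm is a single living cell layer that holds the radicle back and shares none of these meristems.

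The labels were checked against defining genes of each tissue, 5 of them for the endosperm. The endosperm gene EPR1, which encodes an extensin-like protein, averaged between 13.65 and 13.79 over the MCE time points and between 6.44 and 7.27 over the RAD time points. AT1G14940 and MLP31 had lowest MCE means of 12.25 and 11.93, and reached at most 4.58 and 3.71 in the RAD. Both were put on the list with results of these arrays known, so they are no independent check. The mannanase gene MAN7, also of the endosperm list, rose in the RAD, from 4.87 at 3 HAS to 6.51 at 24 HAS, and its MCE means at these times were 4.32 and 8.63, so that at 3 HAS the RAD mean was the higher. MAN5, the last of the list, did not separate the compartments, with means of 4.21 to 5.01 in the RAD and 4.59 to 5.30 in the MCE. EPR1 and AT1G14940 were lowest in the RAD at 24 HAS. The part of endosperm RNA in the results below was not tested. The root pole gene BBM is itself 1 of the 173. Of the other root pole genes listed, PLT1, PLT2 and SHR stayed under 5 in every group, and SCR averaged 7.70 to 8.17 in the RAD and 6.59 to 8.04 in the MCE. None of the shoot apex genes STM, WUS, CUC1 and CUC2 exceeded 3.80 in any group. Replicate arrays correlated at 0.987 to 0.996 over all genes, no pair of arrays was identical, and array medians lay between 4.59 and 4.9.

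The 173 genes were mostly of moderate level. Their highest RAD mean ran from 6.01 to 9.23 with a median of 6.56, and it lay below 6.5 for 80 genes, above 7 for 46 and above 8 for 8. Their highest MCE mean ran from 3.14 to 4.995 with a median of 4.47, and 43 genes stayed below 4 in the MCE throughout. These values chose the genes and are given as a description. On single arrays 61 of the genes passed 5 somewhere in the MCE, most often in MCE replicate 1 at 24 HAS with 17 genes and in replicate 1 at 12 HAS with 14, against 3 to 11 genes on each of the other 10 MCE arrays. The highest such value was that of the expansin gene EXPA1, at 5.83 in MCE replicate 1 at 12 HAS against 3.48 and 3.29 in the other replicates there.

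Both thresholds cut through a continuous range. Just inside were ARF8, AT5G59240 and AT3G19200, with highest RAD means of 6.009, 6.014 and 6.015, and AT4G32870, SEN1 and BOP2, with highest MCE means of 4.995, 4.994 and 4.980. Just outside were CXE13, BXL2 and AT2G37510, with highest RAD means of 5.9996, 5.9973 and 5.9967. TET7, AT2G25420 and RGL3 also fell just outside, with highest MCE means of 5.007, 5.012 and 5.018. RGL3, which encodes a DELLA repressor of gibberellin responses, reached 8.51 in the RAD.

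The levels of the compartments over time are given as a description, since the rule held the MCE below 5 and asked for 1 high RAD time point. Over the 4 successive time points the median of the 173 genes in the RAD ran through 5.10, 5.94, 6.09 and 6.27. In the MCE it ran through 3.94, 4.11, 4.23 and 4.18. The median over all genes in the RAD lay between 4.65 and 4.82. At 3 HAS 10 of the 173 genes had an RAD mean at or below the MCE mean. By 7 HAS this held for 1 gene, and later for 0. In bulk samples such as these, fewer cells of a type and less RNA per cell cannot be told apart.

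**Figure D1:**
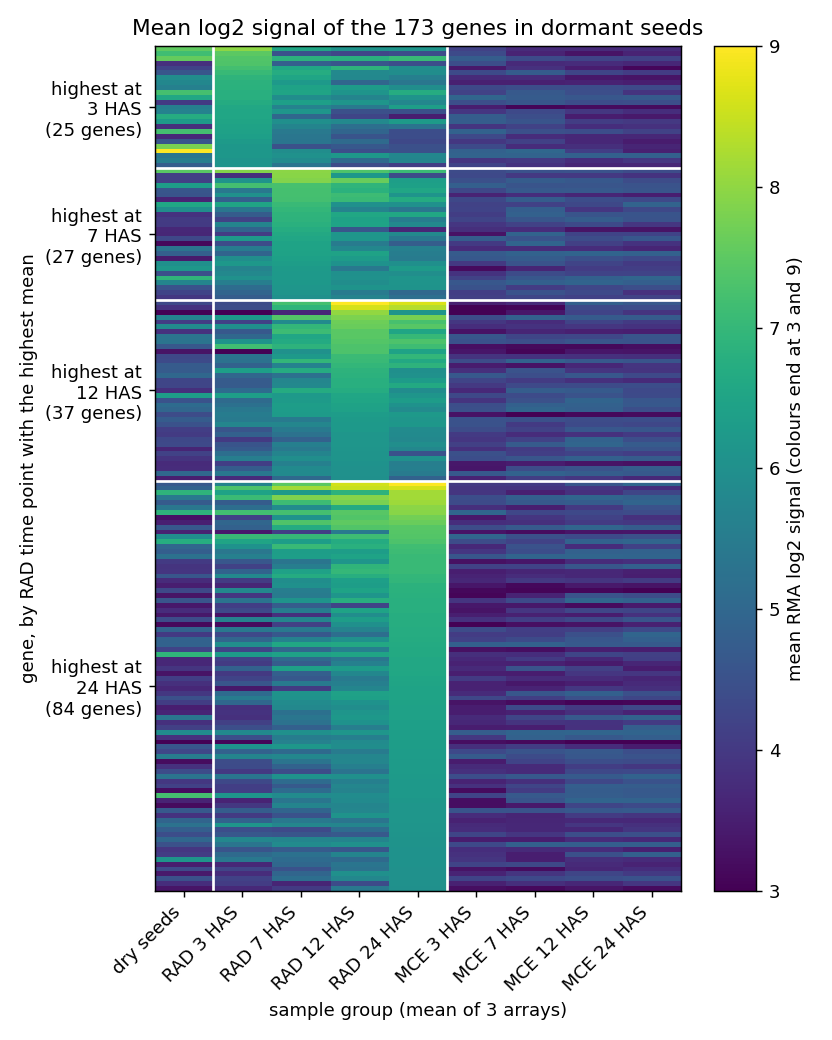
Mean RMA log2 signal (colour, n = 3 arrays) of the 173 genes (rows) in D dry seeds and, by time point, in the RAD and then the MCE (columns), with genes grouped by the RAD time point of their highest mean and ordered within it by that mean. Of the genes, 84 were highest at 24 HAS and 25 at 3 HAS, and the MCE columns stay below 5 by the choice of genes.

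The largest median step was the first, while 24 HAS was the most frequent time of the highest level. The median log2 change of the 173 genes was 0.71 between 3 and 7 HAS, and 0.17 and 0.08 in the following intervals, and 49 genes were first above 6 at 3 HAS and a further 49 at 7 HAS. The time point of 24 HAS held the highest RAD mean of 84 genes (48.6%, against 25.4% of all genes). For 37 genes it was 12 HAS (21.4% against 20.3%), for 27 genes 7 HAS (15.6% against 18.2%) and for 25 genes 3 HAS (14.5% against 36.0%). For 86 of the genes, or 49.7%, all 3 arrays of that time point lay above the other 9 RAD arrays, which held for 22.5% of all genes. The number of genes above 6 in the RAD went from 49 at 3 HAS through 82 and 105 to 126 at 24 HAS, and 21 genes were above 6 at all 4 times. The rule asks only for 1 high time point in the RAD, so that genes whose level varies in the RAD meet it more easily, and nothing beyond the description is read from these shares.

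The time points were compared with limma over all 21313 genes, with Benjamini-Hochberg adjustment. A gene was said to have risen or fallen when the adjusted p was under 0.05 and the means, each raised to at least 4, differed 3-fold. All 173 genes entered every test. From 3 to 24 HAS in the RAD 66 of them rose and 11 fell, which is 38.2% and 6.36%, against 2.64% and 1.31% of all genes. With means raised to 5 in place of 4, 33 rose and 3 fell. The median log2 change of the 173 was 1.22, against -0.04 for all genes. The rule asked for a high RAD mean at some time, so genes that change in the RAD met it more easily. Nothing is therefore read from the difference to all genes, here or in the shorter intervals. From 3 to 7 HAS 27 rose and 3 fell (0.854% and 0.427% of all genes), from 7 to 12 HAS 8 rose and 3 fell (0.0657% and 0.061%), and from 12 to 24 HAS 3 rose and 3 fell (0.0751% and 0.0704%). The methods' t-test with the same adjustment and fold limit called 0 of the 173 in each of the last 2 intervals, and 11 and 6 before adjustment, so that the calls for EXPA1, GA3OX1, WOX11 and others there rest on limma. Of the 66 genes that rose over the whole course, 52 were highest at 24 HAS, and 11 and 3 at the preceding time points. The calls for 70 of the 77 genes held when any 1 of the 6 arrays was left out. The lost ones are named with their genes below, except AT1G53690, which differed by 1.51 without RAD 3 HAS replicate 2, and AT1G73530, which differed by 1.57 without RAD 24 HAS replicate 3.

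The cell wall genes grouped here were mostly highest at 12 HAS. These 8 genes were picked from the 173 by their known roles after their values had been seen. Other genes of the 173 may also act on the wall, so the times given hold for these 8 only. Of them 7 were highest at 12 HAS, as were 20.3% of all genes. From 3 to 24 HAS 4 of them rose, as did 2.64% of all genes. All 8 were below 5 in D dry seeds, from 2.98 to 4.996. EXPA1, EXPA10 and EXPA15 encode alpha-expansins, which loosen the wall. EXPA1 read 2.85, 2.93 and 2.84 on the 3 arrays at 3 HAS and 3.28, 4.37 and 3.32 at 7 HAS, then 7.76, 8.34 and 7.99 at 12 HAS and 5.94, 6.73 and 5.70 at 24 HAS. No array at 12 or 24 HAS overlapped those of the earlier times. Its log2 rise from 7 to 12 HAS was 4.37 ± 0.52 (SE, limma adjusted p = 7.02e-06), the largest of the 173 in that interval. The drop from 12 to 24 HAS was called (log2 change -1.91 ± 0.52, limma adjusted p = 0.0179), but not without RAD 12 HAS replicate 2 (adjusted p = 0.0677), RAD 24 HAS replicate 1 (0.0637) or RAD 24 HAS replicate 3 (0.0944).

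EXPA15 stayed near 5 at 3 and 7 HAS, read 6.73, 7.16 and 6.66 at 12 HAS, and averaged 6.04 ± 0.16 (SD, n = 3) at 24 HAS. Its rise from 7 to 12 HAS was 1.61 ± 0.16 on the log2 scale, and dropped to between 1.46 and 1.57, under the 3-fold limit, when RAD 12 HAS replicate 2 or RAD 7 HAS replicate 1 or 3 was left out. EXPA10 averaged 5.16, 5.71 and 6.11 at 3, 7 and 12 HAS, and 4.52 at 24 HAS, where its arrays (4.66, 4.63 and 4.26) were below all those of 12 HAS (6.11 ± 0.10, SD, n = 3). This fall of 1.59 from 12 to 24 HAS became 1.55, 1.58 and 1.47, again under the limit, without RAD 12 HAS replicate 1 or 3 or RAD 24 HAS replicate 3. All 3 expansins had their highest mean at the same time point.

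XYL1, an alpha-xylosidase that trims xyloglucan, read 4.66, 3.94 and 4.61 at 3 HAS and 8.10, 8.82 and 8.10 at 24 HAS, having reached 8.62, 8.69 and 8.51 at 12 HAS. It rose by 3.94 ± 0.28 from 3 to 24 HAS on the log2 scale (limma adjusted p = 2.07e-11). PME3, a pectin methylesterase, rose from 3 to 7 HAS, from 4.13, 4.68 and 5.11 at 3 HAS to 6.88, 7.14 and 7.31 at 7 HAS. It then read 7.46 ± 0.13 (SD, n = 3) at 12 HAS and 6.52 ± 0.22 at 24 HAS. The arabinogalactan protein gene AGP26 went from 4.98 ± 0.37 at 3 HAS to 7.34 ± 0.30 at 7 HAS and 7.62 ± 0.08 at 24 HAS. XTH4, a xyloglucan endotransglucosylase, and AGP9 were each highest at 12 HAS, with means of 6.78 and 6.22, and missed the 3-fold limit from 3 to 24 HAS with log2 changes of 1.57 ± 0.19 and 1.30 ± 0.20.

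The 3 water channel genes followed another course. PIP2A, PIP1A and PIP1C encode plasma membrane aquaporins, and all had their highest mean at 7 HAS, as did 18.2% of all genes. PIP2A read 7.43, 7.58 and 7.41 in dry seeds and 7.72, 7.96 and 8.18 at 7 HAS, and had the highest mean of the 27 genes highest at 7 HAS. Its MCE means were 4.36 to 4.54. PIP1A was likewise present in dry seeds, at 6.35 ± 0.31 (SD, n = 3), against 7.25 ± 0.05 at 7 HAS. PIP1C alone was low in dry seeds, at 4.56 ± 0.20, and averaged 6.03 at 3 HAS and 7.23 at 7 HAS. None of the 3 passed the 3-fold limit in any interval. Of 26 aquaporin genes recognised by name, 15 were above 5 in the RAD and 11 in the MCE at some time, and 1, NIP5;1, rose in the RAD from 3 to 24 HAS.

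The 173 held 3 genes known from the embryo surface, grouped after their values were seen, and all 3 rose from 3 to 24 HAS, as did 2.64% of all genes. PDF1, which encodes a protodermal protein of the outermost cell layer, had the highest mean of the 173 at any time. It read 5.05, 4.38 and 4.58 in dry seeds and 5.29, 6.01 and 5.82 at 3 HAS. At 7 HAS it read 7.63, 7.42 and 7.41, and at 24 HAS its mean was 9.23 ± 0.02 (SD, n = 3). Arrays of successive RAD time points did not overlap, and the log2 rise from 3 to 24 HAS was 3.53 ± 0.19 (limma adjusted p = 2.16e-13). GSO1 and GSO2, paralogous receptor kinases needed for an intact embryonic cuticle, rose by 2.91 ± 0.20 and 3.56 ± 0.23 on the log2 scale. GSO1 was at 5.38, 6.11 and 6.31 by 7 HAS, whereas GSO2 was then at 3.46, 4.60 and 4.36 and reached 5.80, 6.19 and 6.06 only at 12 HAS. The rise of PDF1 from 3 to 7 HAS (1.78) fell to 1.57 without RAD 3 HAS replicate 1, and that of GSO2 from 7 to 12 HAS (1.88) to 1.54 without RAD 7 HAS replicate 1, both just under the 3-fold limit. Of 24 cutin and wax genes listed, PDF1 was the only 1 of the 173. From 3 to 24 HAS PDF1 and LTPG1 rose and 22 of the 24 were not called, with a median log2 change of 0.22 over the list, and 9 were above 5 in the MCE at some time. The epidermal regulators ATML1 and PDF2 were among those 9, with highest MCE means of 9.50 and 9.41.

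**Figure D2:**
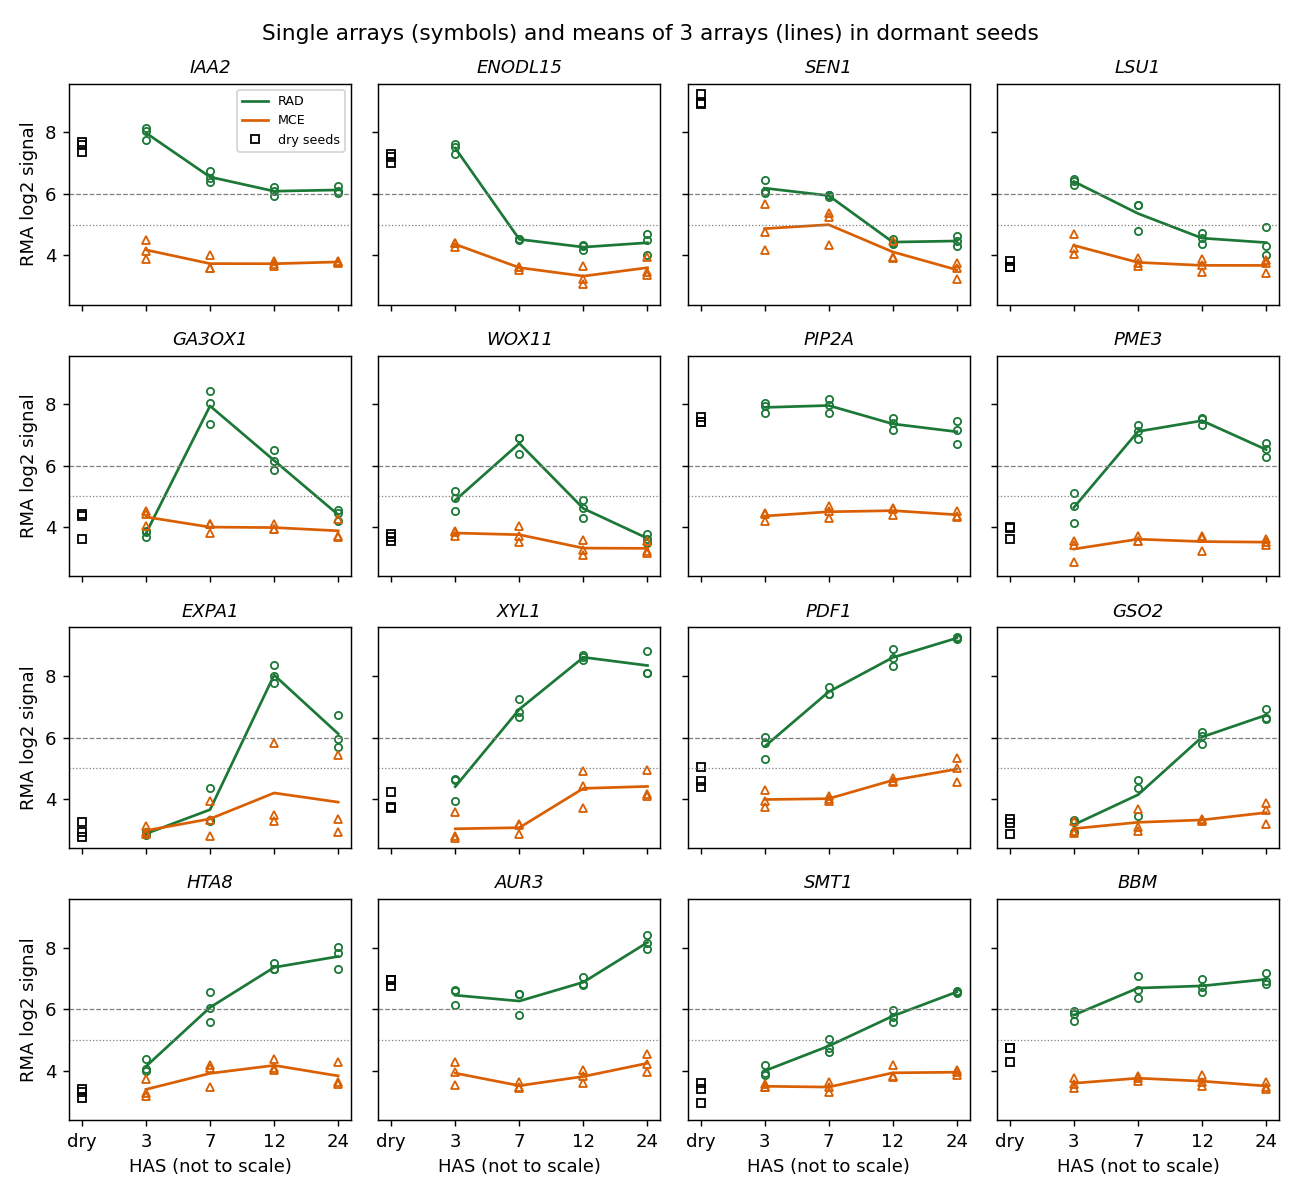
RMA log2 signal (vertical axis) of 16 of the genes on each array of D dry seeds (squares), the D RAD (circles) and the D MCE (triangles), against HAS (horizontal axis, not to scale), with lines through the means of 3 arrays and the thresholds of 6 (dashed) and 5 (dotted). GA3OX1 and WOX11 were highest at 7 HAS, EXPA1 at 12 HAS and PDF1 at 24 HAS, while IAA2 and ENODL15 were high in dry seeds and at 3 HAS.

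Of 11 genes of cell division and chromatin, grouped after their values were seen, 8 were highest at 24 HAS and 3 at 12 HAS, and 7 rose from 3 to 24 HAS, as did 2.64% of all genes. Over all genes 25.4% were highest at 24 HAS and 20.3% at 12 HAS. The H2A variant genes HTA8 and HTA11 encode histone H2A.Z. HTA8, for example, read 3.32, 3.42 and 3.12 in dry seeds and 4.06, 4.01 and 4.38 in the RAD at 3 HAS, then 7.31, 8.02 and 7.84 at 24 HAS. HTA11 started higher, at 5.40, 5.40 and 5.31 in dry seeds, and read 7.25, 8.18 and 8.41 at 24 HAS. The rises from 3 to 24 HAS were 3.57 ± 0.23 and 2.77 ± 0.21 on the log2 scale.

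AUR3 encodes an Aurora kinase of mitosis. It was present in dry seeds (6.96, 6.77 and 6.95) and at 3 HAS (6.14, 6.59 and 6.65), and read 7.96, 8.15 and 8.42 at 24 HAS, above all its earlier arrays. Its log2 rise of 1.72 ± 0.19 from 3 to 24 HAS became 1.56, under the 3-fold limit, without RAD 3 HAS replicate 1. CKS2, a subunit of cyclin-dependent kinases, went from 5.99 ± 0.15 (SD, n = 3) at 3 HAS to 7.62 ± 0.17 at 12 HAS, and missed the limit from 3 to 24 HAS at 1.46 ± 0.16 (SE). The cyclin gene cycp3;1 rose by 1.67 ± 0.23, and by 1.44 without RAD 3 HAS replicate 1 or 1.52 without RAD 24 HAS replicate 3, both under the limit. Of 48 cyclin and cyclin-dependent kinase genes recognised by name, cycp3;1 was the only 1 of the 173. In that list 1 gene rose from 3 to 24 HAS, 1 fell and 46 were not called, and 22 were above 5 in the RAD and 18 in the MCE at some time. Its highest MCE mean was 3.89.

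CHR1, also known as DDM1, a chromatin remodeller that maintains DNA methylation, averaged 4.11 at 3 HAS and 6.24 at 24 HAS and rose by 2.13 ± 0.23. The beta-tubulin gene TUB6 rose by 1.96 ± 0.17, and 4 of the 11 tubulin genes measured rose in the same interval. AT5G10390 and AT5G10400 are neighbouring copies annotated as histone 3.1, so that probes may not separate them. Their log2 changes were 1.48 ± 0.18, which missed the 3-fold limit, and 1.72 ± 0.19, which passed it with all arrays but not without RAD 24 HAS replicate 2 (1.499). BUB3.2, a relative of spindle checkpoint proteins, and RDR2, the RNA polymerase that makes precursors of heterochromatic small RNAs, varied between means of 5.72 and 6.55 over the RAD time points, with log2 changes from 3 to 24 HAS of -0.24 ± 0.16 and 0.01 ± 0.19.

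Gibberellin and steroid genes differed in timing. GA3OX1 makes bioactive gibberellin, the hormone that promotes germination. It read 4.35, 4.43 and 3.61 in dry seeds and 3.88, 3.67 and 3.86 at 3 HAS. It then read 7.36, 8.43 and 8.02 at 7 HAS, 6.49, 6.14 and 5.87 at 12 HAS and 4.19, 4.48 and 4.54 at 24 HAS. The RAD time points did not overlap each other, and by 24 HAS the level was again near that of dry seeds. Its log2 rise from 3 to 7 HAS was 4.14 ± 0.23 (limma adjusted p = 1.23e-12), the largest of the 173 by raised means. It fell by 1.77 from 7 to 12 HAS (limma adjusted p = 2.09e-05) and by 1.76 from 12 to 24 HAS (adjusted p = 1.6e-05), the earlier fall becoming 1.52, under the limit, without RAD 7 HAS replicate 2. MCE means of GA3OX1 were 3.88 to 4.33.

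Of the steroid genes SMT1, CPI1 and CPD rose from 3 to 24 HAS, as did 2.64% of all genes. SMT1 and CPI1 act early on the plant sterol pathway, FK encodes the sterol C-14 reductase, and CPD encodes a cytochrome P450 of brassinosteroid synthesis. SMT1 read 4.19, 3.88 and 3.94 at 3 HAS and averaged 6.57 ± 0.03 (SD, n = 3) at 24 HAS, with a rise of 2.57 ± 0.15 on the log2 scale. CPI1 and CPD rose by 2.90 ± 0.17 and 1.97 ± 0.19. CPD averaged 6.97 at 12 HAS and 6.87 at 24 HAS. FK was highest at 12 HAS, at 6.12 ± 0.20 (SD, n = 3), and its change from 3 to 24 HAS, 1.09 ± 0.23 (SE), missed the 3-fold limit. All 4 were below 5 in dry seeds.

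Genes of patterning and meristems were highest at various times. The 13 grouped here after their values were seen were highest at 24 HAS (7 genes), 12 HAS (3), 7 HAS (1) or 3 HAS (2), and HAT3, HSFB4 and BAM1 rose from 3 to 24 HAS, by 1.92 ± 0.22, 1.93 ± 0.18 and 2.54 ± 0.19 on the log2 scale. Over all genes 25.4% were highest at 24 HAS and 2.64% rose from 3 to 24 HAS. BBM, an AP2 transcription factor of the embryo and root meristem, averaged 4.59 in dry seeds and 5.82, 6.69, 6.76 and 6.98 in the RAD over the 4 times. HSFB4, known as SCHIZORIZA and needed for root stem cell asymmetry, averaged 4.57 at 3 HAS and 6.51 at 24 HAS. BAM1, a receptor kinase of meristem and root patterning, went from 4.05 to 6.59. BBM and the KNOX gene KNAT1, expressed in stems and hypocotyls, had log2 changes of 1.16 ± 0.16 and 1.46 ± 0.18 and missed the limit.

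WOX11, a homeobox gene known from adventitious root founding, was above 6 at 7 HAS only. It read 3.56, 3.78 and 3.69 in dry seeds and 4.95, 4.52 and 5.16 at 3 HAS. It then read 6.39, 6.90 and 6.89 at 7 HAS, 4.90, 4.29 and 4.63 at 12 HAS and 3.63, 3.78 and 3.50 at 24 HAS, so that arrays at 7 HAS lay above all others. It rose by 1.85 ± 0.18 from 3 to 7 HAS and fell by 2.12 from 7 to 12 HAS on the log2 scale (limma adjusted p = 1.09e-07). ASL5, a LOB domain gene, averaged 6.88 to 7.32 over the RAD time points with MCE means of 3.12 to 3.24. PHB, an HD-ZIP III regulator of organ polarity, was at 5.92 ± 0.45 (SD, n = 3) in dry seeds and 5.85 ± 0.36 at 3 HAS. BOP2, GRF5 and LSH3, known from leaf and organ boundary development, were at 7.39, 7.15 and 6.89 at their highest.

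The lists drawn up for the radicle and by family held from none to several of the 173 genes, where the rule took 0.812% of all genes measured. Among 22 measured genes of root pole and embryo patterning, BBM, HSFB4 and PHB did, 11 were above 5 in the RAD and 5 in the MCE, and 2 rose from 3 to 24 HAS. Among 11 measured root epidermis genes none did, 4 were above 5 in the RAD, and WER rose, reaching 5.86. Of 10 auxin transport genes the root-specific efflux carrier gene PIN2, listed as EIR1, met it. PIN2 averaged 5.30 in dry seeds and 6.09, 6.66, 7.40 and 7.32 in the RAD over the 4 times, a log2 change of 1.23 ± 0.20 from 3 to 24 HAS that missed the limit. Among 52 auxin response genes IAA2 and ARF8 met the rule, and in the whole list 1 rose and 2 fell. Among 86 genes recognised as homeobox genes by name 4 met it, namely PHB, WOX11, HAT3 and KNAT1, and among 129 named MYB and 86 named NAC genes none did. Of the expansin and XTH genes, 4 of 64 met it, and 6 of the 64 rose and 1 fell.

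**Figure D3:**
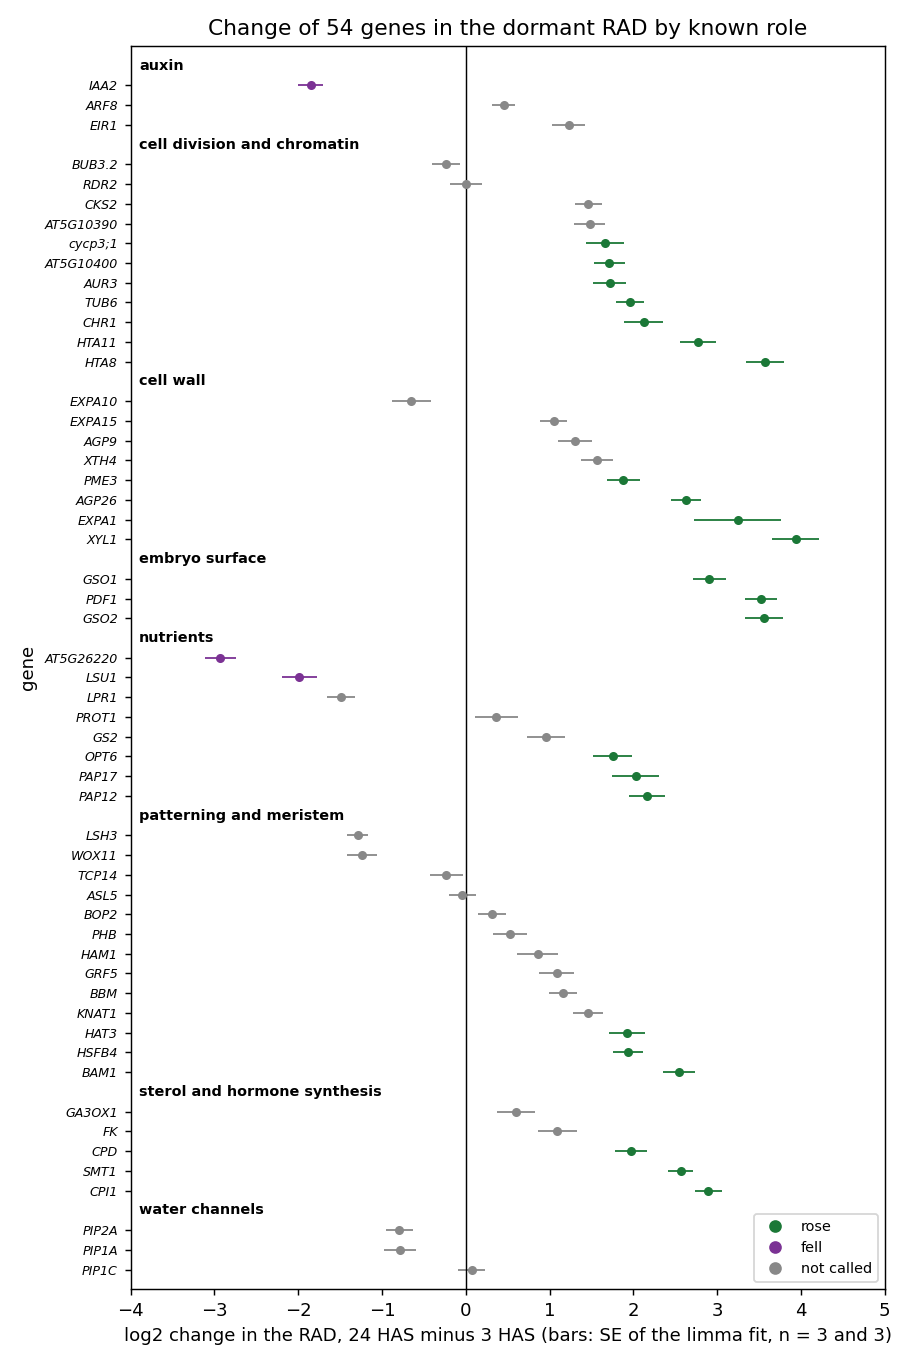
Log2 change in the D RAD from 3 to 24 HAS (horizontal axis, points, with bars for the SE of the limma fit, n = 3 and 3) of 54 of the genes (rows), grouped by known role. Green marks genes that rose, purple genes that fell and grey those not called. The 3 embryo surface genes all rose, and IAA2, AT5G26220 and LSU1 fell.

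A smaller set was present at 3 HAS and went down. All 11 genes that fell from 3 to 24 HAS were highest at 3 HAS. ENODL15, which encodes an early nodulin-like membrane protein, averaged 7.48 ± 0.16 (SD, n = 3) at 3 HAS and 4.52 ± 0.02 at 7 HAS. It fell by 2.96 on the log2 scale between them, with no overlap (limma adjusted p = 1.09e-12). In dry seeds it was at 7.16 ± 0.15. IAA2, an early auxin response gene, read 8.05, 7.73 and 8.15 at 3 HAS and 6.10, 6.24 and 6.03 at 24 HAS, and was at 7.60, 7.68 and 7.36 in dry seeds. COL5, a CONSTANS-like gene, was at 6.72 ± 0.26 (SD, n = 3) in dry seeds and 6.55 ± 0.31 at 3 HAS, and ended at 3.50 ± 0.17. AT5G60400 and AT5G45880 fell by 2.10 and 2.01 on the log2 scale from 3 to 24 HAS. Most of the fall of AT5G60400 lay between 7 and 12 HAS (1.70), where it became 1.57, under the limit, without RAD 12 HAS replicate 2. The remaining genes that fell were AT5G26220, LSU1, LBD39, CYP78A6, SEN1 and AT1G12030. Without RAD 3 HAS replicate 2 the change of CYP78A6 was -1.56, under the limit.

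Of 8 genes of nutrient supply and sulphur, grouped after their values were seen, PAP12, PAP17 and OPT6 rose from 3 to 24 HAS, AT5G26220 and LSU1 fell, and LPR1, PROT1 and GS2 were not called, with log2 changes of -1.49 ± 0.17, 0.36 ± 0.26 and 0.96 ± 0.23. AT5G26220, a gamma-glutamyl cyclotransferase that degrades glutathione, and LSU1, known to respond to low sulphur, were low in dry seeds (3.84 ± 0.18 and 3.69 ± 0.10, SD, n = 3), high at 3 HAS (7.35 ± 0.30 and 6.4 ± 0.11) and at 4.42 and 4.41 at 24 HAS. They rose from dry seeds to 3 HAS by 3.51 ± 0.18 and 2.71 ± 0.21 (SE) on the log2 scale and fell by 2.93 and 1.98 from 3 to 24 HAS. LBD39, a LOB domain gene known to respond to nitrate and not counted in this group, averaged 4.61, 6.26 and 4.31 in the same 3 groups. Its rise to 3 HAS of 1.65 became 1.45 to 1.58, under the limit, without dry seed replicate 2 or RAD 3 HAS replicate 1 or 2. The acid phosphatase genes PAP12 and PAP17 rose from 3 to 24 HAS by 2.17 ± 0.22 and 2.03 ± 0.28. The oligopeptide transporter gene OPT6 rose by 1.75 ± 0.23, or 1.57 without RAD 3 HAS replicate 3. Over all genes 2.64% rose and 1.31% fell from 3 to 24 HAS.

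The dry seed level itself was not used to choose the genes. Whole dry seeds include endosperm, though, and the rule held the MCE below 5. Dry seed shares are therefore not independent of the choice, and nothing is read from their difference to all genes. In D dry seeds 48 of the 173, or 27.7%, had a mean above 5, against 45.7% of all genes, and 22 were above 6. A further 69 lay between 4 and 5 and 56 below 4. The median was 4.38, against 4.59 over all genes. All 3 dry seed arrays were above 5 for 44 genes and below 5 for 112. When the arrays were brought to 1 distribution by a further quantile normalisation, 58 of the same 173 genes were above 5 in dry seeds, and 47.5% of all genes.

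The dry seed counts are given by the time of the highest RAD mean. Of the 25 genes highest at 3 HAS 17 (68.0%) were above 5 in dry seeds, with a median of 5.65. The corresponding counts for the later time points, in order, were 9 of 27, 7 of 37 and 15 of 84 (33.3%, 18.9% and 17.9%), with medians of 4.47, 4.31 and 4.15. After the further quantile normalisation they were 17, 10, 9 and 22. Over all genes the shares above 5 in dry seeds were 53.6%, 40.8%, 26.7% and 53.3% for those highest at 3 HAS and at each later time point. Over all genes that also passed 6 in the RAD they were 98.6%, 93.0%, 88.9% and 88.7%. These shares are given without a test, since genes are not replicates.

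From D dry seeds to the RAD at 3 HAS 15 of the 173 genes rose and 2 fell, against 1.18% of all genes in each direction. Here compartment, isolation method and imbibition all differ between the groups. The largest rises were those of AT5G26220 and of CRF3, a cytokinin response factor that read 4.12, 4.26 and 4.25 in dry seeds and 7.12, 6.92 and 7.57 at 3 HAS. GATA15 rose from 3.82 ± 0.14 to 6.46 ± 0.11 (SD, n = 3) and AT3G23160 from 4.02 ± 0.34 to 6.69 ± 0.12. AT2G20515, which had the highest mean of the 173 over the RAD, read 4.74, 5.06 and 4.83 in dry seeds and 7.19, 7.31 and 7.49 at 3 HAS. AT4G39550 rose by 1.67 ± 0.15 (SE), or 1.54 without RAD 3 HAS replicate 3, which is under the limit. AT1G75388, the 1 gene absent from the reference, went from 4.13 to 6.11 and then 7.90 at 7 HAS. None of the genes that rose from dry seeds to 3 HAS also rose from 3 to 24 HAS.

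The 2 that fell were the strongest in dry seeds. SEN1, a gene induced in darkness and senescence, read 8.93, 9.25 and 8.91 in dry seeds, 6.10, 6.43 and 6.01 in the RAD at 3 HAS and 4.47 ± 0.17 (SD, n = 3) at 24 HAS. It fell by 2.85 from dry seeds to 3 HAS (limma adjusted p = 3.93e-09), and its MCE means were 3.53 to 4.99. CYP78A6, a cytochrome P450 that promotes seed growth, read 7.84, 7.81 and 7.73 in dry seeds and 5.73, 6.54 and 6.29 at 3 HAS. That fall of 1.61 became 1.38 without RAD 3 HAS replicate 1 and 1.58 without dry seed replicate 1, both under the limit. AT1G77060 was held at 7.57 ± 0.04 (SD, n = 3) in dry seeds and 6.80 to 7.37 throughout the RAD. In all, 10 of the 173 genes had a dry seed mean above every RAD mean, and for 6 every dry seed array was above every RAD array.

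**Figure D4:**
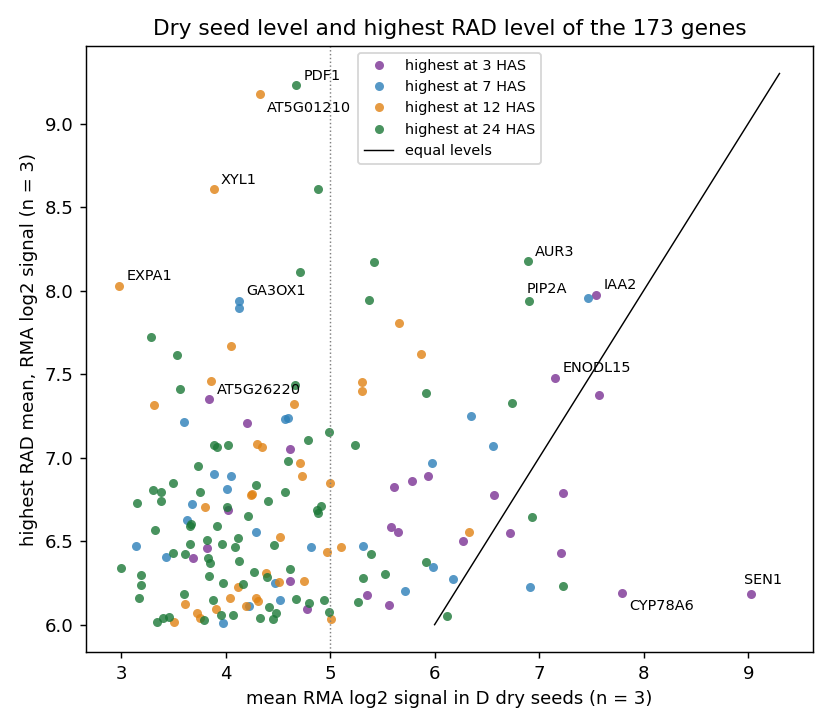
Highest RAD mean (vertical axis) against the mean in D dry seeds (horizontal axis) of the 173 genes, both as RMA log2 signal (n = 3 arrays each), coloured by the RAD time point of the highest mean. The line marks equal levels and the dotted line the threshold of 5 in dry seeds. SEN1 and CYP78A6 lie furthest to the right, and 48 genes lie right of the dotted line.

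Several of the strongest genes are known here by identifier only. AT5G01210 read 4.23, 4.95 and 3.92 at 3 HAS, 6.54, 7.49 and 7.69 at 7 HAS and 9.56, 8.91 and 9.06 at 12 HAS, and its log2 change from 3 to 24 HAS, 4.30 ± 0.28, was the largest of the 173 (limma adjusted p = 4.42e-12). AT4G29270 climbed at each step, through means of 3.41, 4.12, 5.42 and 7.41, and rose by 4.0 ± 0.16 from 3 to 24 HAS. AT2G19460 remained between 4.11 and 4.77 until 12 HAS and read 6.21, 7.22 and 6.96 at 24 HAS. Together with AT4G29270 and the subtilase gene SBT1.3 it made up the 3 genes that rose from 12 to 24 HAS, though SBT1.3 differed by 1.52, under the limit, without RAD 24 HAS replicate 2. AT1G17200, annotated as a CASP-like membrane protein, rose by 2.11 ± 0.22 from 7 to 12 HAS. HCD1 rose by 3.37 ± 0.19 from 3 to 24 HAS and reached 8.11 ± 0.22 (SD, n = 3). AT3G17680 averaged 4.17 at 3 HAS and 7.67 at 12 HAS, and its rises from 3 to 7 HAS (1.69) and from 7 to 12 HAS (1.81) each depended on 1 array, becoming 1.46 without RAD 7 HAS replicate 3 and 1.52 without RAD 7 HAS replicate 1. GSTU13, a glutathione S-transferase, was highest at 12 HAS, at 7.81 ± 0.18, and AT1G11125 at 7 HAS, at 7.24 ± 0.15. AT4G32870, the gene nearest the MCE threshold, averaged 6.90 in dry seeds and 7.94 in the RAD at 24 HAS.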

How the data were processed

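The deposited values were log2 signals that the authors made by RMA, normalising the 27 arrays with others of the study and of earlier work under a custom chip definition that gives 1 value per gene, with control probes removed. They were used as deposited. A log2 signal carries no read depth, and the number of arrays limits precision. Gene names came from the RefSeq annotation (assembly TAIR10.1). No sequence was used.

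Group means were taken over 3 arrays. Comparisons used limma 3.58.1 in R 4.3.3 with all 9 groups in 1 fit. Calls needed an adjusted p under 0.05 and a 3-fold difference of means raised to 4. On simulated data for 3 to 24 HAS, 200 genes changed by 2 on the log2 scale were all found by adjusted p, with 10 others of 21313, and 121 by the full rule, with 0 others. The changed genes went up or down and included low ones, for which raising means to 4 can keep the difference under 3-fold. Gene names given are the highest genes over the RAD and per time point, the largest changes, the highest and lowest in dry seeds, those nearest the thresholds, and those on lists; others were chosen after their values were seen. Members and lists were chosen with earlier results of these data known. Families by name may be incomplete. Other thresholds, folds, floors, normalisation, tests and left-out arrays were tried as alternatives.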

Additional observations from a re-analysis of the deposited data

How the results depend on the processing

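The number of genes moved with the thresholds. With the RAD above 5.5 or 6.5 it was 336 or 93, and with the MCE below 4.5 or 5.5 it was 87 or 350. In the same order, genes highest at 24 HAS numbered 154, 42, 48 and 167, genes highest at 3 HAS 57, 15, 15 and 59, and genes above 5 in dry seeds 99, 28, 16 and 139. A further quantile normalisation gave 211 genes, 168 of them shared, of which 78 were above 5 in dry seeds. A dry seed threshold of 4.5 gave 79. Leaving out replicate 1, 2 or 3 from every group gave 163 to 200 genes, 75 to 98 highest at 24 HAS, 23 to 30 highest at 3 HAS and 48 to 60 above 5 in dry seeds.

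With means raised to 5, called genes numbered 36 over the whole RAD course (3 to 24 HAS, 33 that rose and 3 that fell), 7 for the 7 to 12 HAS interval, 3 for 12 to 24 HAS and 9 from dry seeds to the RAD at 3 HAS. With a 2-fold limit there were 61 for the 3 to 7 HAS interval, 26 for 7 to 12 HAS, 19 for 12 to 24 HAS and 41 from dry seeds to the RAD at 3 HAS. The methods' t-test gave 0 for both the 7 to 12 HAS and the 12 to 24 HAS intervals after Benjamini-Hochberg adjustment, against 11 and 6 at an unadjusted p under 0.05, the counts that limma also gave. Leaving out 1 array gave 75 to 84, 28 to 33, 6 to 12, 4 to 7 and 14 to 18 called genes in the 5 comparisons, in the order 3 to 24, 3 to 7, 7 to 12 and 12 to 24 HAS and dry seeds to 3 HAS. The 6 from 7 to 12 HAS came without RAD 7 HAS replicate 1. Other settings kept every count within 1.5 times. Of the 5 largest rises and 5 largest falls from 3 to 24 HAS, those of COL5, AT5G60400 and AT5G45880 were not called with means raised to 5.

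Array numbers were not used to pair the samples. Same-numbered arrays deviated from their group means with correlations from -0.182 to 0.235. With the replicate block the calls were the same 77, 30, 11, 6 and 17 genes. The authors treat signals below 5 as not separable from technical noise, so the floor of 4 lies within the noise. Changes that start below 5 are therefore uncertain in size. For means under 4 the floor can understate the fold change. The promoter motif search planned was not run, since no sequence was used here.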

Other observations

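The members on the sterol pathway were set beside the rest of it, a list of 12 genes drawn up after the values of SMT1, CPI1 and FK had been seen. All 12 had a higher mean in the RAD at 24 than at 3 HAS, SMO2-1 with a limma adjusted p of 0.0654. By the rule 5 rose, namely SMT1, CPI1, HYD1, DWF5 and DWF1, as did 2.64% of all genes. The MCE means of all 12 were also higher at 24 than at 3 HAS. HYD1 went from 6.64 to 8.99 there, DWF1 from 5.98 to 8.98 and DWF5 from 5.32 to 5.39. The array median over all genes, averaged over the MCE arrays of each time, went from 4.67 to 4.88 between these times, a larger step than that of DWF5. Changes in the MCE were not tested. In the MCE 8 of the 12 were above 5 at some time, among them CYP51G1 and DWF1, with highest MCE means of 8.45 and 8.98. SMO1-1 was low in the MCE, at 4.01 or less, but reached only 5.62 in the RAD. CAS1, which forms the first sterol ring precursor, differed little between compartments, with highest means of 7.00 in the RAD and 6.90 in the MCE.

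Further members belong to signalling and lipid metabolism. RALF23, a secreted growth-inhibiting peptide, averaged 4.02 in dry seeds, 5.71 at 3 HAS and 6.81 at 7 HAS, and PROPEP6, a precursor of an elicitor peptide, 5.58, 6.59 and 5.65. The phospholipase gene PLA2-ALPHA averaged 3.08 at 3 HAS and 5.65 at 7 HAS, and ended at 6.34. AT3G63210, annotated as a mediator of abscisic acid regulated dormancy, averaged 4.38 in dry seeds and 5.53, 6.30, 6.31 and 6.26 in the RAD, while its MCE means did not exceed 3.28. ORA47, an AP2/ERF gene of the jasmonate response, rose by 2.45 ± 0.19 (SE) on the log2 scale from 3 to 24 HAS (limma).

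Among the genes measured, 4 pairs of members were neighbours on a chromosome: ORA47 with AT1G74940, PLP9 with AT3G63210, AT4G29260 with AT4G29270, and AT5G10390 with AT5G10400. Over the 12 RAD arrays the pairs correlated at -0.09, 0.90, 0.82 and 0.87, as a description over arrays that share time points.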
